A study of Caenorhabditis elegans with 50 samples.

Results

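The loss of daf-16 in animals with a weakened insulin receptor was followed across all genes of the nematode Caenorhabditis elegans, in 15 of the 50 RNA libraries of the study. They were chosen by strain name alone, as the 5 libraries of daf-2(e1370), the 5 of daf-16(mg54);daf-2(e1370) and the 5 of daf-16(mu86);daf-2(e1370). All 3 strains carry daf-2(e1370), a reduction-of-function allele of the insulin/IGF-1 receptor gene, and the doubles add either mg54, a nonsense allele of daf-16, or mu86, a daf-16 deletion. Each library was made from polyadenylated RNA of whole animals on day 1 of adulthood and was read as paired ends of 100 cycles. The animals spent the first 72 hours at 15 °C and were then kept at 20 °C. The single mutant daf-2(e1370) was given an egg lay that began 6 hours ahead, and no such lead is named for the doubles, so genotype and this lead cannot be told apart in any difference below. Wild type (WT, 5 libraries) and daf-2(e1368), a weaker allele, with its own mg54 and mu86 doubles (15 libraries) serve as references. They had the same temperatures and day of adulthood. No egg lay lead is named for them either, so comparisons of daf-2(e1370) with them carry the same limit. Since RNA came from whole animals, fewer cells of a type and less RNA per cell cannot be told apart.

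Insulin-like peptides act on DAF-2, which signals through phosphoinositide 3-kinase and the kinases PDK-1 and AKT to keep the FOXO transcription factor DAF-16 out of the nucleus. When the receptor is weak, DAF-16 enters the nucleus and binds promoters of stress defence, metabolic and immune genes. daf-2 mutants are known for a long adult life and stress resistance that need daf-16.

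The libraries held 21020067 to 31374447 fragments, apart from daf-2(e1370) replicate 2, which held 2367909. That library also stood apart in content. Its 62 histone gene entries summed to 2036 CPM (counts scaled to the library size, per 1000000), against 242 to 342 in the other 4 libraries of the strain, and its 186 entries of small nuclear, nucleolar and RNase RNAs summed to 1400 CPM against 7.46 to 16. Replicates 0 and 1 of both doubles stood apart in another way. On the first principal component, which took up 53.8% of the variance, these 4 libraries lay at 60.2 to 125.24 and the other 11 at −80.86 to 0.18. Their summed level of 54 sperm marker entries was 72.7 to 546 CPM, while the other 6 libraries of the doubles read 1584 to 2439 and those of daf-2(e1370) read 962 to 2523, with 5 or 6 of the 54 at 0 throughout a strain. Body wall muscle markers followed the same split, at 3239 to 4825 CPM in the 4 libraries and 8003 to 8716 in the other 6 doubles. Within daf-2(e1370), replicates 0 and 1 also read lowest in both lists, though less far apart. They were at 1130 and 962 CPM for sperm markers (others 1412 to 2523). For muscle markers they were at 5675 and 5591 CPM (others 6866 to 10763). The part of these shifts in the gene results was not tested. Counts over all entries are therefore also given without daf-2(e1370) replicate 2 and without replicates 0 and 1 of both doubles. The second omission keeps replicates 0 and 1 of daf-2(e1370), so it is not matched between the strains. List counts are given so only in part, and a list count printed without an omission can also move under it.

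**Figure D1:**
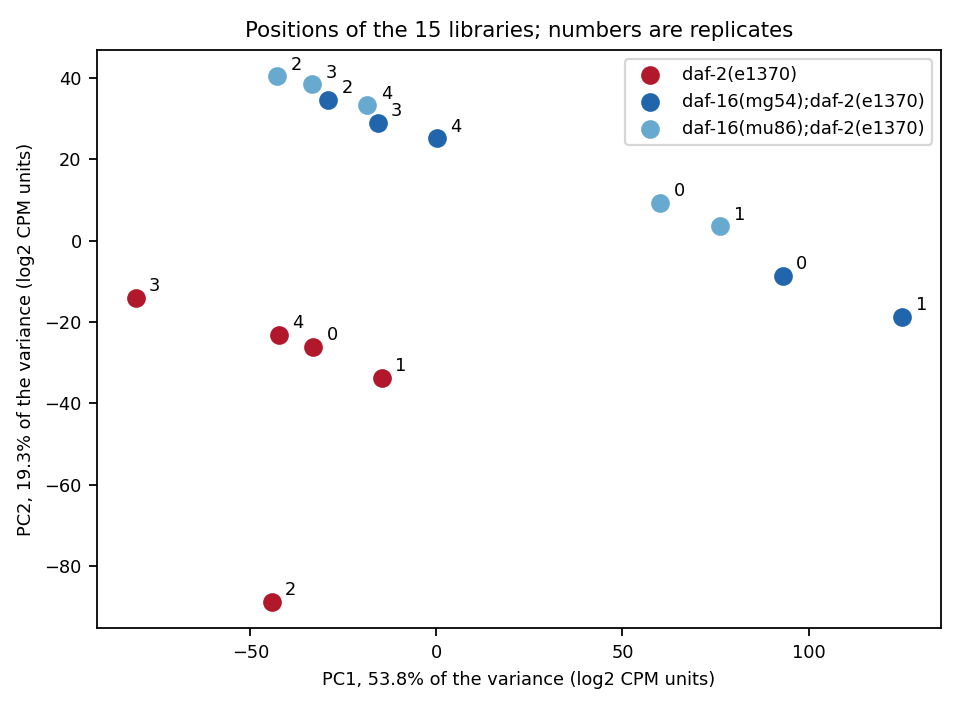
Positions of the 15 libraries on the first 2 principal components of log2 CPM over all tested entries, in log2 CPM units, with points coloured by strain and numbered by replicate. Replicates 0 and 1 of both doubles lie at 60.2 to 125.24 on the first component, away from the other 11, and daf-2(e1370) replicate 2 lies lowest on the second, at −88.86.

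Across the transcriptome, differences were larger on the side where daf-2(e1370) was high. Of 11774 entries tested, 1684 (14.3%) were higher and 1562 (13.3%) lower in daf-2(e1370) than in the mean of its doubles, at an adjusted p under 0.05, which is 27.6% in all. The called differences had a median of 0.91 on the log2 scale among entries that were higher and −0.42 among those that were lower, while the median over all entries tested was 0.02. At 2 log2 units or more, 254 entries were higher and 82 lower, and at 3 or more 116 were higher and 31 lower. Against the mg54 double alone 1395 (11.8%) were higher and 1226 (10.4%) lower, and against the mu86 double 1318 (11.2%) and 1217 (10.3%), with 22.3% and 21.5% called in all. These comparisons share the daf-2(e1370) libraries. With all 50 libraries in the fit the balance turned, to 1536 higher and 1888 lower against the mean, 1258 and 1544 against mg54, and 1129 and 1359 against mu86. Without replicate 2 of daf-2(e1370), 2942 (24.8%) were called against the mean, 1697 (14.3%) higher and 1245 (10.5%) lower, and 1491 and 1098 of these entries had also been called with it. Without replicates 0 and 1 of the doubles 3295 (27.4%) were called, 1667 (13.9%) higher and 1628 (13.5%) lower, with 1231 and 1088 shared. Under the first omission the mg54 comparison called 1423 (12%) higher and 927 (7.81%) lower (19.8% in all) and the mu86 comparison 1391 (11.7%) and 1074 (9.05%) (20.8%). Under the second the mg54 comparison called 1051 (8.74%) and 1027 (8.54%) (17.3%) and the mu86 comparison 1306 (10.9%) and 1391 (11.6%) (22.4%). Every daf-2(e1370) library lay above all 10 libraries of the doubles in 636 entries (5.4%) and below all 10 in 414 (3.52%). In 627 higher entries (5.33%) and 403 lower ones (3.42%), the call also held in all 3 fits. These 1030 entries are called separated below, and the genes named are mostly drawn from them. For genes named by the largest differences or smallest adjusted p, the lack of overlap is thus a condition of choice. List counts below are to be read beside the 14.3% higher and 13.3% lower among all entries. Some lists lie near or below these shares.

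**Figure D2:**
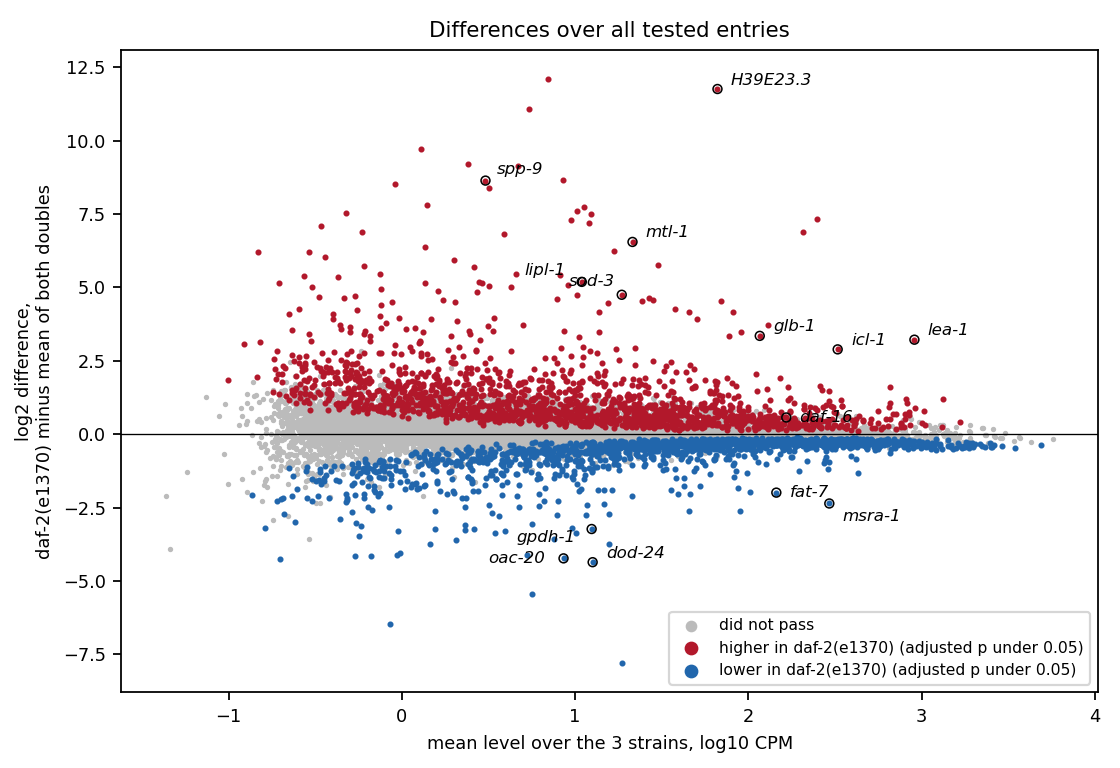
Log2 difference between daf-2(e1370) and the mean of both doubles (vertical axis) against the mean level over the 3 strains in log10 CPM (horizontal axis), 1 point per tested entry, red where higher and blue where lower at an adjusted p under 0.05. Entries that were higher reach further from 0 than those that were lower, with 254 against 82 at 2 log2 units or more, and ringed genes are named in the text.

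The mutated genes were examined first. daf-16 (chromosome I, 10750402 to 10776748, in genome build ce10 as the deposited table gives it) read 201, 199, 270, 191 and 179 CPM in replicates 0 to 4 of daf-2(e1370), 110, 106, 94.4, 105 and 110 in the mg54 double and 166, 148, 203, 196 and 206 in the mu86 double. Every mg54 library lay below every other, whereas the mu86 libraries overlapped those of daf-2(e1370). The difference was 0.98 ± 0.09 against mg54 (adjusted p = 8.48e-10) and 0.17 ± 0.09 against mu86 (adjusted p = 0.207). A total over the whole entry includes sequence outside the deleted part, so it does not check the mu86 label. daf-2 itself (chromosome III, 2995416 to 3028848) read 194, 207, 441, 174 and 197 CPM in the single mutant, against 109 to 165 over the 10 libraries of the doubles. The call held without replicate 2, where the difference was 0.49 in place of 0.8.

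The pathway list holds daf-2 and daf-16 themselves and the ligand genes ins-7 and daf-28. Of its 10 tested members 4 were higher (daf-2, daf-16, pdk-1 and ftt-2) and 1 lower. The median difference was 0.25 beside 0.02 over all entries. pdk-1, which encodes the kinase that activates AKT (chromosome X, 1321078 to 1328110), read 17.7, 21.3, 37.1, 23.2 and 20.1 CPM in daf-2(e1370), 11, 10.6, 10.9, 9.98 and 9.99 in mg54 and 11.4, 11.6, 8.88, 9.39 and 8.47 in mu86. All 5 libraries of daf-2(e1370) were above all 10 of the doubles, a difference of 1.2 ± 0.11 (adjusted p = 4.53e-10). ftt-2, a 14-3-3 protein gene whose product holds DAF-16 in the cytoplasm, rose by 0.46 ± 0.07 (adjusted p = 1.44e-05). The other 14-3-3 gene, par-5, was lower by a log2 difference of −0.3 ± 0.1 (adjusted p = 0.0231), a call that was lost without replicate 2 (adjusted p = 0.139) and without replicates 0 and 1 of the doubles (adjusted p = 0.122). The DAF-16 cofactor genes smk-1 and hcf-1, the deubiquitinase gene math-33 and the ligand genes ins-7 and daf-28 did not pass, with differences of 0.05, −0.11, −0.02, −0.22 and 1.01 (adjusted p = 0.713, 0.327, 0.898, 0.612 and 0.248). Among the insulin-like peptide genes, 10 of 18 tested were higher and 2 lower, and 8 and 2 without replicates 0 and 1 of the doubles. These ligands were scarce. ins-10 averaged 1.3 CPM in daf-2(e1370) against 0.108 and 0.102, and ins-23 averaged 1.04 against 0.125 and 0.0351, with every daf-2(e1370) library above every double in both cases. ins-34 was lower, at 2.31 against 3.69 and 4.17 CPM (−0.73 ± 0.18, adjusted p = 0.00212).

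The energy sensor AMP-activated kinase, which phosphorylates DAF-16 in worms, had 3 of 6 tested subunit genes higher and 1 lower. Over all entries the shares were 14.3% and 13.3%. The gamma subunit gene aakg-4 (chromosome X, 2291546 to 2323780) read 37.3, 34, 26.7, 43.2 and 41.3 CPM in daf-2(e1370), 9.15, 9.53, 12.4, 12.5 and 11.5 in mg54 and 7.36, 8.52, 9.22, 10.6 and 10.1 in mu86. The groups did not overlap, and the difference was 1.87 ± 0.1 (adjusted p = 5.04e-16). The catalytic subunit gene aak-2 rose by 0.4 ± 0.06 (adjusted p = 6.16e-06), and another gamma subunit gene, aakg-2, had a difference of −0.3 ± 0.05 in the other direction (adjusted p = 3.63e-05). Among 25 tested genes of transcription factors tied to longevity, 4 were higher and 2 lower, and 2 and 3 without replicates 0 and 1 of the doubles. xbp-1, a factor of the unfolded protein response, was among those that rose (0.47 ± 0.07, adjusted p = 1.76e-06). Nuclear hormone receptors had 18 of 116 higher and 10 lower, beside 14.3% and 13.3% of all entries. The counts were 25 and 9 without daf-2(e1370) replicate 2, and 14 and 15 without replicates 0 and 1 of the doubles. nhr-3 had the largest fall among the separated ones that the naming rule reached, at 5.47 CPM against 14.9 and 13.8 (−1.39 ± 0.13, adjusted p = 2.98e-10).

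The largest differences belonged to genes that were close to silent without daf-16. H39E23.3 (chromosome V, 14107795 to 14110036) read 199, 229, 210, 175 and 181 CPM in daf-2(e1370), 0.115, 0, 0.131, 0.125 and 0.0751 in mg54 and 0.0778, 0, 0.0314, 0.0368 and 0 in mu86. All 10 libraries of the doubles and all 5 of WT (0 to 0.276 CPM) were near 0, and the shallow replicate 2 was as high as the rest. The fitted difference was 11.76 ± 0.33 (adjusted p = 1.9e-23). T12D8.5 (chromosome III, 13614627 to 13626700) was listed at 0 in all 10 libraries of the doubles and all 5 of WT. In daf-2(e1370) it held 384, 374, 23, 656 and 805 fragments, or 10.4 to 38.6 CPM. Some zeros of this table stand where an estimate failed, so no fold is given. CELE_F56D6.9 ranged over 1.81 to 24.7 CPM, lowest in replicate 2, and was listed at 0 in every mu86 library, with 0 to 0.0383 CPM over the doubles.

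Other genes of this kind had a few fragments in the doubles. T02B5.1, named cest-1.1 in RefSeq and so of the carboxylesterase class, ranged over 11.1 to 19.1 CPM in daf-2(e1370) and 0 to 0.249 in the doubles. sdz-24 stood 182-fold higher (27.9 to 58.3 against 0.0765 to 0.439 CPM, adjusted p = 1.53e-18). CELE_Y9C9A.16, F21C10.11, R05H10.7, F15B9.6 and CELE_Y39G8B.7, which the sources used here do not describe further, differed by 8.65, 7.75, 7.29, 7.2 and 6.83 on the log2 scale. In each the daf-2(e1370) libraries did not overlap the doubles, which the rule for naming them required. The list of the 15 largest rises ended with the metallothionein gene mtl-1, the lysosomal lipase genes lipl-2 and lipl-1, the glutathione S-transferase gene gst-29 (5.03 ± 0.3) and the ferritin gene ftn-1 (4.75 ± 0.32).

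**Figure D3:**
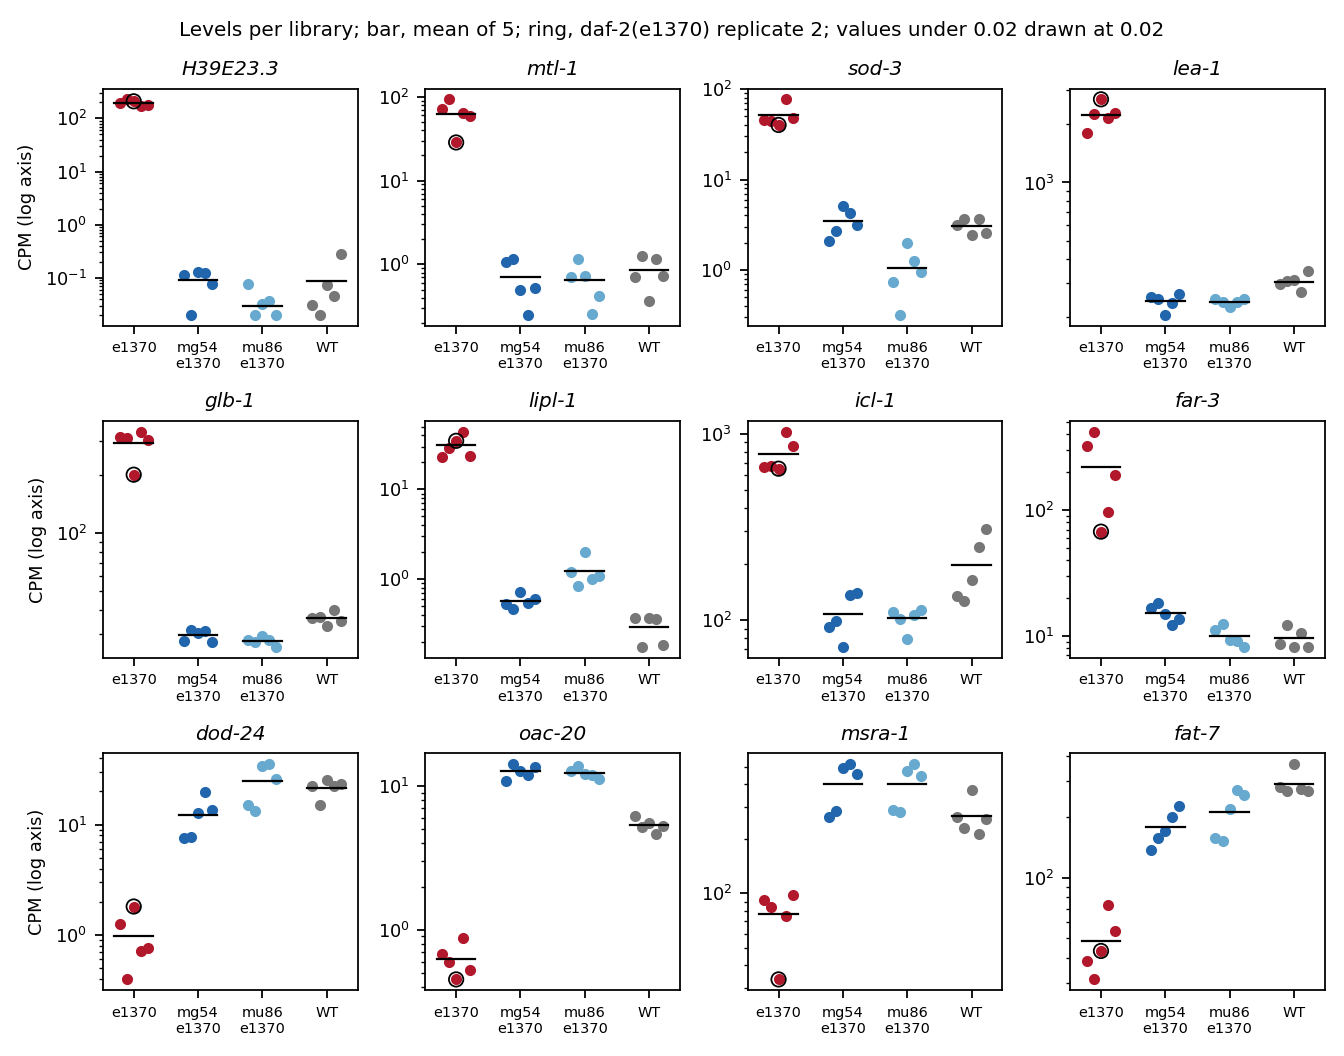
CPM on a log axis in each library of daf-2(e1370), its mg54 and mu86 doubles and WT for 8 genes that were higher and 4 that were lower in daf-2(e1370), with a bar at the mean of 5, a ring around daf-2(e1370) replicate 2, and values under 0.02 drawn at 0.02. In all 12 panels the daf-2(e1370) points do not overlap those of the doubles, a condition by which most of these genes were chosen. The WT points of lea-1 and glb-1 lie near the doubles.

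With the 15 largest rises set aside, the 8 separated rises with the smallest adjusted p were taken next. lea-1 encodes a late embryogenesis abundant protein of the kind that protects against drying (chromosome V, 9943314 to 10239917, a span the table also gives to neighbouring entries). It read 1811, 2264, 2698, 2161 and 2299 CPM in daf-2(e1370), 254, 248, 206, 237 and 265 in mg54 and 248, 241, 225, 239 and 249 in mu86. The doubles sat close to each other and to WT (270 to 347), and the fold was 9.31 (log2 3.22 ± 0.08, adjusted p = 1e-24). The globin gene glb-1 (chromosome III, 8920018 to 8925178) read 312, 311, 200, 334 and 303, then 27.7, 31.7, 30.4, 31.2 and 27.3 in mg54 and 28, 27.4, 29.2, 27.9 and 25.7 in mu86. Replicate 2 was the lowest of the 5 but still far above the doubles, and the difference of 3.35 became 3.47 without it. Of 23 tested globins 2 were higher and 0 lower at an adjusted p under 0.05, and 1 and 4 without replicates 0 and 1 of the doubles.

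The gut esterase gene ges-1, a classic marker of the intestine (chromosome V, 997656 to 1689685, again a span shared with neighbouring entries), read 88.4, 91.4, 85, 98.6 and 84.9 CPM in daf-2(e1370), 31.7, 33.2, 31.4, 30 and 29.2 in mg54 and 31.6, 27.7, 27.5, 24.4 and 27.5 in mu86. The groups did not overlap, at a fold of 3.05 (adjusted p = 2.04e-20). In the intestine list 2 of 12 tested were higher and 4 lower, with a median of −0.11. Besides ges-1 the cathepsin B-like protease gene cpr-1 was higher (1.13 ± 0.16), and the peptide transporter gene pept-1 (−0.76 ± 0.15) and the metallothionein gene mtl-2 (−0.58 ± 0.15) were lower. spp-2, a saposin-like antimicrobial peptide gene, stood at 134 ± 36.3 CPM against 8.36 ± 2.65 and 9.46 ± 0.782 (SD, n = 5). bcmo-2, which encodes a carotenoid oxygenase-like enzyme, differed by 2.64 ± 0.11, and M01F1.4 by 1.18 ± 0.05, in both cases with all 5 libraries above all 10. H22K11.2, named bgal-2 in RefSeq, was also among these 8, but its doubles differed from each other. It ranged over 25.9 to 35.1 CPM in daf-2(e1370), 20 to 23.7 in mg54, 3.21 to 3.94 in mu86 and 21 to 23.3 in WT, so that the mu86 double alone was far from the rest.

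Of 24 tested genes known as DAF-16 targets, 21 were higher and 1 lower (2 without replicates 0 and 1 of the doubles), with a median of 2.05, and 19 of the 21 were separated. Many of these genes became known from daf-2 mutants like these, so the count is a description. sod-3, the mitochondrial manganese superoxide dismutase gene (chromosome X, 17087807 to 17094023), read 46, 44.5, 40.2, 77.3 and 48.4 CPM in daf-2(e1370), 2.07, 2.66, 5.03, 4.24 and 3.16 in mg54 and 0.739, 0.317, 1.98, 1.25 and 0.955 in mu86. The mu86 libraries were all below those of mg54, and both were far below the single mutant, at log2 differences of 5.6 ± 0.32 and 3.9 ± 0.29. mtl-1, whose product binds metal ions (chromosome V, 6691281 to 6691943), read 71, 93.2, 28.5, 63.5 and 58.9 CPM, then 1.07, 1.16, 0.49, 0.25 and 0.526 in mg54 and 0.7, 1.15, 0.722, 0.258 and 0.415 in mu86. That is a 93.5-fold difference (adjusted p = 1.17e-15), and replicate 2 was the lowest daf-2(e1370) library. Its relative mtl-2 was the member of the list that was lower (128 CPM against 204 and 185, adjusted p = 0.00353), and with replicate 2 and replicates 0 and 1 of the doubles all left out it no longer passed. The remaining 2 members, mdl-1 and hsp-16.2, did not pass.

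Small heat shock proteins keep unfolded proteins from clumping. Of 8 tested, 3 rose and 0 fell, beside 14.3% and 13.3% of all entries. With replicates 0 and 1 of the doubles left out, 2 fell. sip-1 was the most abundant of the 3, at 1196 CPM against 400 and 386 (1.61 ± 0.14, adjusted p = 1.4e-10). hsp-12.6 rose by 2.25 ± 0.22 and hsp-12.3 by 1.78 ± 0.2. Folding factors of the endoplasmic reticulum had 1 of 13 higher and 2 lower, among the latter dnj-7 (−0.33 ± 0.07), and 1 lower without replicates 0 and 1 of the doubles. Among genes for superoxide and peroxide defence, 5 of 15 were higher and 1 lower. The catalase gene ctl-3 rose by 1.62 ± 0.21, and msra-1, which repairs oxidised methionine (chromosome II, 7358698 to 7364250), went the other way. It read 92.1, 84.6, 33.5, 74.9 and 97.4 CPM in daf-2(e1370), 265, 285, 492, 518 and 456 in mg54 and 289, 282, 472, 519 and 445 in mu86. The groups did not overlap, replicates 0 and 1 were the lowest libraries of each double, and the difference was −2.36 ± 0.21 (adjusted p = 1.59e-10).

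All 5 tested lysosomal lipase genes, whose enzymes free fatty acids from lipid droplets delivered to lysosomes, were higher, also without replicate 2 and without replicates 0 and 1 of the doubles. lipl-1 (chromosome V, 12919990 to 12921674) read 23, 29.3, 34.8, 44.1 and 23.5 CPM in daf-2(e1370), 0.536, 0.463, 0.719, 0.541 and 0.601 in mg54 and 1.21, 0.832, 2.01, 0.994 and 1.08 in mu86. Each mu86 library was above each mg54 library and each of these above all of WT (0.175 to 0.371), and the fold of daf-2(e1370) over the doubles was 36.6. lipl-2 rose 42.5-fold and lipl-4 3.4-fold. far-3, a secreted fatty acid and retinol binding protein gene (chromosome V, 12995406 to 12997535, a span shared with far-5), varied more between replicates, at 324, 421, 67.4, 96.6 and 191 CPM against 16.8, 18.3, 14.8, 12.1 and 13.6 in mg54 and 11.2, 12.5, 9.22, 9.13 and 8.18 in mu86. Even its lowest daf-2(e1370) library, the shallow one, was above the highest double (log2 4.17 ± 0.25, adjusted p = 1.6e-14). The list of 14 lipid binding proteins as a whole had 4 higher and 3 lower (4 and 5 without replicates 0 and 1 of the doubles), with far-5 up (1.89 ± 0.27) and far-6 down (−0.9 ± 0.15).

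Both directions occurred among the fatty acid desaturase genes. fat-7, a stearoyl-CoA desaturase gene (chromosome V, 7151427 to 7153112), read 38.8, 31.4, 43.4, 73.5 and 54.7 CPM in daf-2(e1370), 137, 156, 169, 198 and 226 in mg54, 156, 151, 218, 269 and 256 in mu86 and 266 to 364 in WT. The single mutant was lowest, WT overlapped the doubles at 1 mu86 library only, and the difference to the doubles was −1.99 ± 0.18 (adjusted p = 1.67e-10). fat-5, a palmitoyl-CoA desaturase gene, was higher (0.9 ± 0.16). Over the list, 3 of 14 desaturases and elongases were higher and 4 lower. Peroxisomal beta-oxidation had 6 of 14 higher and 1 lower, beside 14.3% and 13.3% of all entries. Without replicates 0 and 1 of the doubles its counts were 4 and 0. The acyl-CoA oxidase gene F58F9.7 (acox-3 in RefSeq) was at 58.9 CPM against 34 and 28.6. Mitochondrial fatty acid oxidation had 10 of 34 higher and 7 lower, and the acyl-CoA synthetase genes acs-17 and acs-7 rose by 1.49 ± 0.18 and 1.25 ± 0.2.

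Of 16 tested genes of the glyoxylate shunt, gluconeogenesis and glycolysis, 9 were higher and 2 lower, beside 14.3% and 13.3% of all entries, and 9 and 1 without replicates 0 and 1 of the doubles. icl-1 encodes the worm's combined isocitrate lyase and malate synthase, the enzyme of the glyoxylate shunt (chromosome V, 724457 to 734306). It read 665, 671, 650, 1028 and 862 CPM in daf-2(e1370), 91.4, 98.5, 71.6, 136 and 139 in mg54, 110, 101, 79.4, 107 and 113 in mu86 and 134, 127, 165, 247 and 310 in WT. The doubles reached at most 139 CPM, overlapping the 2 lowest WT libraries, and the difference to the doubles was 2.89 ± 0.19 (adjusted p = 2.19e-13). The phosphoenolpyruvate carboxykinase genes pck-1 and pck-2 rose by 1.62 ± 0.17 and 1.2 ± 0.09, the latter from 917 and 949 to 2137 CPM. The list of trehalose, glycerol and desiccation genes, which counts lea-1 among its rises, had 2 of 8 higher and 3 lower. tre-2 and tre-3, which encode trehalases that split this sugar, were lower (−0.66 ± 0.06 and −0.33 ± 0.08), tre-4 was higher (0.68 ± 0.11), and gpdh-1, a glycerol-3-phosphate dehydrogenase gene known for its response to salt, was 9.41-fold lower (adjusted p = 1.21e-05).

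Amino acid and peptide transporters had 2 of 17 higher and 6 lower, and 1 and 5 without replicates 0 and 1 of the doubles. aat-1 (22.2 to 26.1 against 3.2 to 6.02 CPM, 2.36 ± 0.12) was separated upward and aat-4 (10.6 to 14 against 17.4 to 29.3 CPM, −0.85 ± 0.11) downward. The list of V-ATPase subunits and lysosomal proteases was mixed, with 8 of 29 higher and 6 lower. Its counts were 7 and 4 without daf-2(e1370) replicate 2, and 7 and 8 without replicates 0 and 1 of the doubles. Its cathepsin B-like members parted: cpr-1 and cpr-4 rose (1.13 and 0.95), and cpr-5 was lower, at 102 CPM against 246 and 239 (adjusted p = 4.04e-07). CELE_Y39B6A.24, named asp-17 in RefSeq and so of the aspartyl protease class, ranged over 0.452 to 1.53 CPM against 2.76 to 16.6. Autophagy and TOR genes had 3 of 18 higher and 2 lower (5 and 1 without replicates 0 and 1 of the doubles), among the former T12G3.1 (sqst-1, the p62 cargo receptor, 0.71 ± 0.1) and atg-2 (0.66 ± 0.13). The metal handling list had 3 of 8 higher and 2 lower, with the cadmium-responsive gene cdr-2 rising 3.92-fold.

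Immune effector families were taken next. Saposin-like proteins, which make pores in bacteria, had 8 of 14 higher and 0 lower, at an adjusted p under 0.05. The counts were 12 and 0 without daf-2(e1370) replicate 2, and 7 and 1 without replicates 0 and 1 of the doubles. spp-9 ranged over 4.97 to 16.5 CPM in daf-2(e1370) and 0 to 0.11 in the doubles, and spp-12 over 1.36 to 7.96 against 0.156 to 0.957. Lysozymes had 4 of 8 higher and 1 lower. lys-7 (chromosome V, 3481477 to 3482596) read 363, 246, 296, 358 and 412 CPM in daf-2(e1370), 4.13, 10.6, 23.2, 28.2 and 29.1 in mg54 and 38.6, 27.1, 32.9, 32.8 and 38.7 in mu86. Replicates 0 and 1 of mg54 were lowest, and the call held without them at 3.46 in place of 3.72 (adjusted p = 1.86e-16). lys-8 rose by 0.92 ± 0.09, and ilys-5, an invertebrate-type lysozyme gene, was lower (−0.5 ± 0.1).

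C-type lectins, sugar-binding proteins of which many respond to infection, had 18 of 69 higher and 20 lower, both above the background shares. clec-60 and clec-61 were at 2.57 to 6.07 and 1.81 to 3.52 CPM in daf-2(e1370), with at most 0.125 and 0.0327 in any double. clec-74 was the reverse, at 0 to 0.0339 CPM against 0.957 to 1.63, and clec-10 was lower by a log2 difference of −2.37 ± 0.15. The dod genes, named for standing downstream of daf-16 and thus no independent set, had 2 of 5 higher and 3 lower. dod-3 rose from 4.54 and 6.18 to 102 CPM. dod-24, a gene with a CUB-like domain (chromosome IV, 12940150 to 12941328), read 1.25, 0.395, 1.81, 0.712 and 0.766 CPM in daf-2(e1370), 7.5, 7.68, 12.8, 19.7 and 13.6 in mg54 and 15.1, 13.3, 33.8, 35.6 and 25.8 in mu86. WT sat at 15.1 to 25.3, within the range of the mu86 double, and replicates 0 and 1 were the lowest libraries of each double (−4.36 ± 0.35, adjusted p = 1.38e-11).

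Other genes had large falls. F08G5.6, named irg-4 in RefSeq for infection response, was 6.55-fold lower, dod-23 6.2-fold, CELE_F55G11.2 43.7-fold, CELE_C32H11.4 13.3-fold and CELE_F22E5.1 10.4-fold. In each, as the rule for naming them required, all 5 daf-2(e1370) libraries lay below all 10 doubles. oac-20, an O-acyltransferase-class gene (chromosome V, 15978704 to 15981646), read 0.682, 0.593, 0.452, 0.881 and 0.527 CPM in daf-2(e1370), 10.8, 14.3, 12.8, 12 and 13.6 in mg54 and 12.8, 13.8, 12.1, 12 and 11.2 in mu86. WT lay between, at 6.19, 5.22, 5.53, 4.63 and 5.28. The difference to the doubles was −4.23 ± 0.16 (adjusted p = 1.5e-19), while its family had 1 of 18 higher (oac-34, 1.91 ± 0.36) and 4 lower. The files do not describe Y48E1B.8, which was 5.28-fold lower, and cutl-18, a cuticlin-like gene, was 4.79-fold lower.

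Among the detoxification families, glutathione S-transferases had 16 of 33 higher and 3 lower, with a median of 0.81, and 14 and 2 without replicates 0 and 1 of the doubles. gst-29 ranged over 6.78 to 14.9 against 0.0736 to 0.654 CPM and gst-19 over 3.16 to 7.9 against 0.193 to 1.98, while gst-22 was lower (−0.85 ± 0.16). Cytochromes P450 had 8 of 30 higher and 3 lower, beside 14.3% and 13.3% of all entries. Without replicates 0 and 1 of the doubles the counts were 8 and 5. cyp-37B1 rose by 4.41 ± 0.52, and cyp-13A2 (chromosome II, 9783340 to 9787466) read 1.14, 1.09, 1.36, 2.58 and 1.05 CPM in daf-2(e1370), 7.77 to 24.6 in mg54 and 11.4 to 15.7 in mu86, a 9.27-fold fall. UDP-glucuronosyltransferases had 6 of 31 higher and 11 lower, with a median of −0.01, beside 14.3% and 13.3% of all entries. ugt-18 was higher (3.61 ± 0.45), and ugt-63 (−1.47 ± 0.23) and ugt-53 (−2.74 ± 0.26) were lower. ABC transporters had 3 of 37 higher and 5 lower, and 2 and 9 without replicates 0 and 1 of the doubles. wht-1 was higher (1.3 ± 0.16), haf-7 and mrp-8 lower (−0.57 ± 0.09 and −0.63 ± 0.08). haf-6 was lower than the mean of the doubles through the mu86 double alone, at 14.2 to 17.2 CPM in daf-2(e1370), 12.7 to 18.1 in mg54, 59.2 to 66.2 in mu86 and 52.7 to 64.2 in WT.

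**Figure D4:**
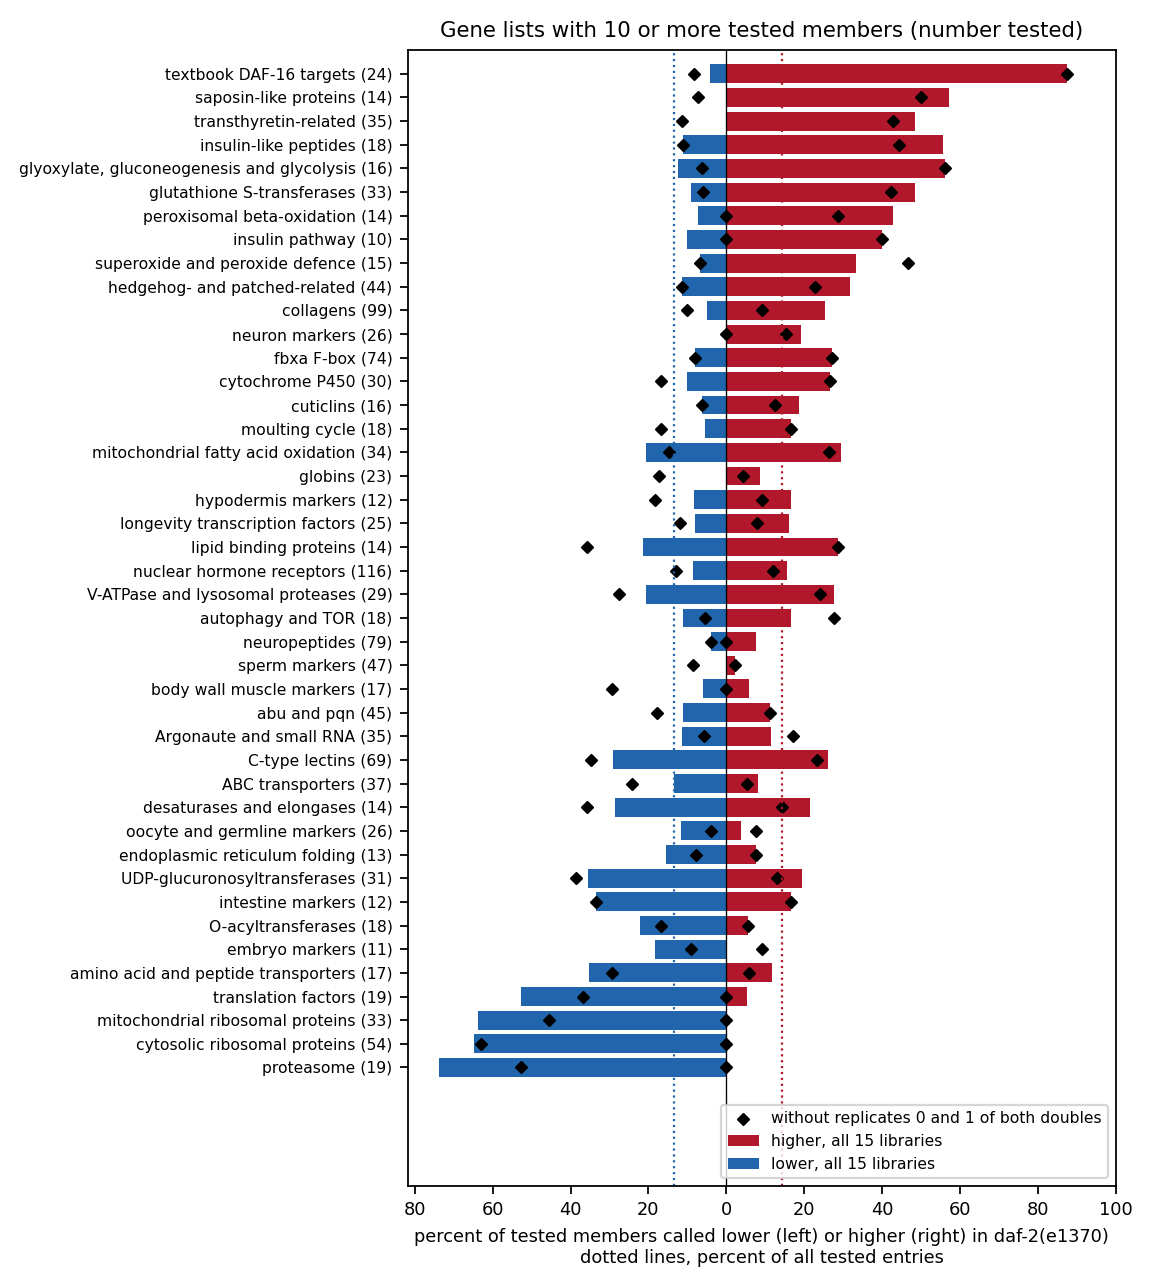
Percent of tested members called higher (right, red) and lower (left, blue) in daf-2(e1370) than in the mean of both doubles for lists with 10 or more tested members, with the number tested in brackets. Diamonds give the percents without replicates 0 and 1 of both doubles, and dotted lines mark the 14.3% and 13.3% of all tested entries. Known DAF-16 targets stand furthest right and proteasome subunits furthest left, and in collagens the higher share drops from 25 of 99 members to 9.

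Among secreted and structural families, transthyretin-related proteins had 17 of 35 higher and 0 lower, at an adjusted p under 0.05, and 15 and 4 without replicates 0 and 1 of the doubles. ttr-26 was at 36.8 CPM against 2.7 and 1.57, and ttr-23 rose by 2.46 ± 0.33. Collagens of the cuticle had 25 of 99 higher and 5 lower, but 9 and 10 without those 4 libraries, which also read low in hypodermis markers, at 686 to 1438 CPM against 2340 to 2901 in the other 6 doubles. col-85 was among the 3 that stayed separated (1.36 to 3.22 against 0 to 0.22 CPM). Hedgehog- and patched-related genes had 14 of 44 higher and 5 lower, and the Argonaute list 4 of 35 higher and 4 lower, with wago-2 (−0.47 ± 0.07) and prg-2 (−0.46 ± 0.1) lower. The Argonaute counts were 2 and 3 without replicate 2 of daf-2(e1370), and 6 and 2 without replicates 0 and 1 of the doubles. Cuticlins had 3 of 16 higher and 1 lower, beside 14.3% and 13.3% of all entries. Prion-like abu and pqn genes had 5 of 45 and 5, with pqn-44 up (0.65 ± 0.12). Moulting genes had 3 of 18 and 1, with the protease gene nas-36 up (0.83 ± 0.17). Without replicates 0 and 1 of the doubles, the counts were 5 and 8 for abu and pqn genes and 3 and 3 for moulting genes. The fbxa F-box family, whose products choose proteins for degradation, had 20 of 74 higher and 6 lower. fbxa-188 rose by 2.23 ± 0.2, and fbxa-72 was lower, at 12.5 CPM against 45 and 59.9.

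In the lists of ribosomal proteins, translation factors and proteasome subunits, more members were called lower than higher, beside 13.3% lower among all entries. Cytosolic ribosomal proteins had 35 of 54 tested lower and 0 higher, with a median of −0.36, and 22 of 54 were lower without replicate 2. Mitochondrial ribosomal proteins had 21 of 33 lower and 0 higher, with a median of −0.24. Of them 17 were lower without replicate 2 and 15 without replicates 0 and 1 of the doubles. mrps-23 ranged over 24 to 32.6 CPM against 38.7 to 52.6 in the doubles and mrpl-53 over 11.8 to 17.3 against 19.7 to 26.3. The ribosomal stalk protein gene rla-2 was at 284 to 680 against 689 to 802 CPM (−0.5 ± 0.13, adjusted p = 0.00329). Translation factors had 10 of 19 lower, with E04D5.1 (eif-2A in RefSeq) at −0.55 ± 0.08, and 1 higher, eef-1A.2, an elongation factor gene whose call was lost without replicate 2 (adjusted p = 0.112). In this list 8 were lower without replicate 2 and 7 without replicates 0 and 1 of the doubles. Proteasome subunits had 14 of 19 lower and 0 higher, with a median of −0.33, and 10 lower under either omission, but 0 of the 14 were separated in this strict sense. pbs-4, for a subunit of the core particle, ranged over 68.3 to 169 CPM against 160 to 218.

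With the 15 largest falls set aside, the 8 separated falls with the smallest adjusted p were taken next. Y71H10B.1 read 116 to 128 CPM against 183 to 225 in the doubles (−0.77 ± 0.05, adjusted p = 2.25e-14). tra-3, a calpain protease gene of the sex determination pathway, differed by −0.68 ± 0.06. Y54G2A.3, T15B7.1, F12B6.2 (slc-17.6 in RefSeq, a solute carrier) and CELE_ZK228.4 differed by −0.96 ± 0.08, −1.05 ± 0.09, −0.83 ± 0.07 and −1.76 ± 0.15. All were separated by the rule that picked them, with each daf-2(e1370) library below each double.

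Markers of tissues were examined as lists. Neuron markers had 5 of 26 higher and 0 lower, at an adjusted p under 0.05, beside 14.3% and 13.3% of all entries, among them unc-13, which primes synaptic vesicles (0.92 ± 0.19). Without daf-2(e1370) replicate 2, 3 were higher, and the list median of 0.40 became 0.10 without replicates 0 and 1 of the doubles. Their summed level over 27 entries was 904 to 951 CPM in daf-2(e1370) and 720 to 875 in the doubles, with no overlap. Neuropeptide genes had 6 of 79 higher and 3 lower. The counts were 10 and 1 without daf-2(e1370) replicate 2, and 0 and 3 without replicates 0 and 1 of the doubles, so nlp-8 lost its rise (adjusted p = 0.0619). Embryo markers summed to 216 to 252 CPM in daf-2(e1370) and 253 to 329 in the doubles. Of 11 tested, 0 were higher and 2 lower at an adjusted p under 0.05, pal-1 (−0.34 ± 0.11), whose call was lost under either omission, and sdz-28 (−1.21 ± 0.25). Oocyte and germline markers had 1 of 26 higher (rec-8, adjusted p = 0.31 without replicate 2) and 3 lower. The counts were 0 and 1 without replicate 2 of daf-2(e1370), at an adjusted p under 0.05, and 2 and 1 without replicates 0 and 1 of the doubles. The list summed to 11472 to 14706 CPM in daf-2(e1370), 16071 to 17396 in those 4 libraries and 10459 to 14336 in the other 6 doubles, higher in the 4 libraries that were low in sperm and muscle markers. Sperm markers had 1 of 47 higher (nspd-9) and 0 lower at an adjusted p under 0.05, and 1 and 4 without replicates 0 and 1 of the doubles. Body wall muscle had 1 of 17 in each direction, with the myosin gene myo-3 higher (1.05 ± 0.33) until replicate 2 was left out (adjusted p = 0.229). Without replicates 0 and 1 of the doubles 5 muscle markers were lower and 0 higher. Replicates 0 and 1 of daf-2(e1370), also low in muscle markers, were still in that fit. Pharynx markers had 2 of 9 lower, tnt-4 among them, and 7 without replicates 0 and 1 of the doubles. The pharynx list summed to 19.6 to 75.1 CPM in daf-2(e1370), 14.5 to 56.5 in those 4 libraries and 88.2 to 122 in the other 6 doubles. Hypodermis markers had 2 of 12 higher, rol-6 and dpy-5, and 1 lower, and neither rise passed without those 4 libraries (adjusted p = 0.0685 and 0.0689).

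Wild type shows where the doubles stood. Among the 627 separated higher entries, the WT mean lay between the doubles and daf-2(e1370) in 454, at or below the doubles in 172 and above daf-2(e1370) in 1. On a log2 scale that put the doubles at 0 and daf-2(e1370) at 1, the median position of WT was 0.13. Among the 403 lower ones WT lay between in 281, at or above the doubles in 118 and below daf-2(e1370) in 4, with a median position of 0.09. By chromosome, 18.1% of 2304 tested entries on chromosome V were called higher, with 16% on X and 10.8% on I, while the share called lower was highest on III, at 15.3%, and lay at or below 14.1% on the other 5.

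The same alleles of daf-16 were also combined with daf-2(e1368), which allows the daf-16 effect to be compared between receptor alleles in libraries that are not shared. The egg lay lead is named for daf-2(e1370) alone, so lead and receptor allele cannot be told apart in this comparison. The effect, the log2 difference between single mutant and mean of doubles, differed between e1370 and e1368 in 555 entries (4.71%). In 379 (3.22%) it was higher in e1370 and in 176 (1.49%) lower. With all 50 libraries in the fit the split was 314 and 229. Without daf-2(e1370) replicate 2 it was 450 (3.79%) and 134 (1.13%), or 4.92% in all, and without replicates 0 and 1 of the doubles 305 (2.54%) and 185 (1.54%), or 4.08%. Of the 555, 442 had the same sign in both alleles and a larger size in e1370, 2 had a smaller size and 111 had opposite signs. These are signs of the fitted values, and the effect in e1368 was not itself tested against 0. An opposite sign can thus be a value near 0, as for his-48 (4.58 in e1370 and −0.1 in e1368). Of 24 known DAF-16 targets, 15 had a higher effect in e1370 and 0 a lower one, at an adjusted p under 0.05. Among the genes named here H39E23.3 had the largest difference between the alleles, 10.62 ± 1.22 (adjusted p = 9.14e-07). It averaged 0.0999 CPM in daf-2(e1368), against 199 in daf-2(e1370). CELE_Y9C9A.16 differed by 6.59 ± 0.77. oac-20, at −2.87 ± 0.19 (adjusted p = 2.82e-12), and CELE_F55G11.2, cyp-13A2, CELE_F22E5.1, F53F1.4, Y52E8A.4 and Y48E1B.8 fell further in e1370, by differences of −5.45 to −1.93 there. Y54G2A.36 was an exception, since its rise over the doubles was smaller in e1370 (0.56) than in e1368 (2.96). The other 6 genes with the largest positive differences between the alleles, the RNA genes sup-6, ZC155.8, Y24D9A.9, Y74C9A.6 and mrpr-1 and the histone gene his-48, lost that call without daf-2(e1370) replicate 2. ZC155.8 read 1.52, 3.9, 3673, 4.27 and 10.9 CPM in daf-2(e1370), and its difference between the alleles went from 7.32 to 0.22 without that library.

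**Figure D5:**
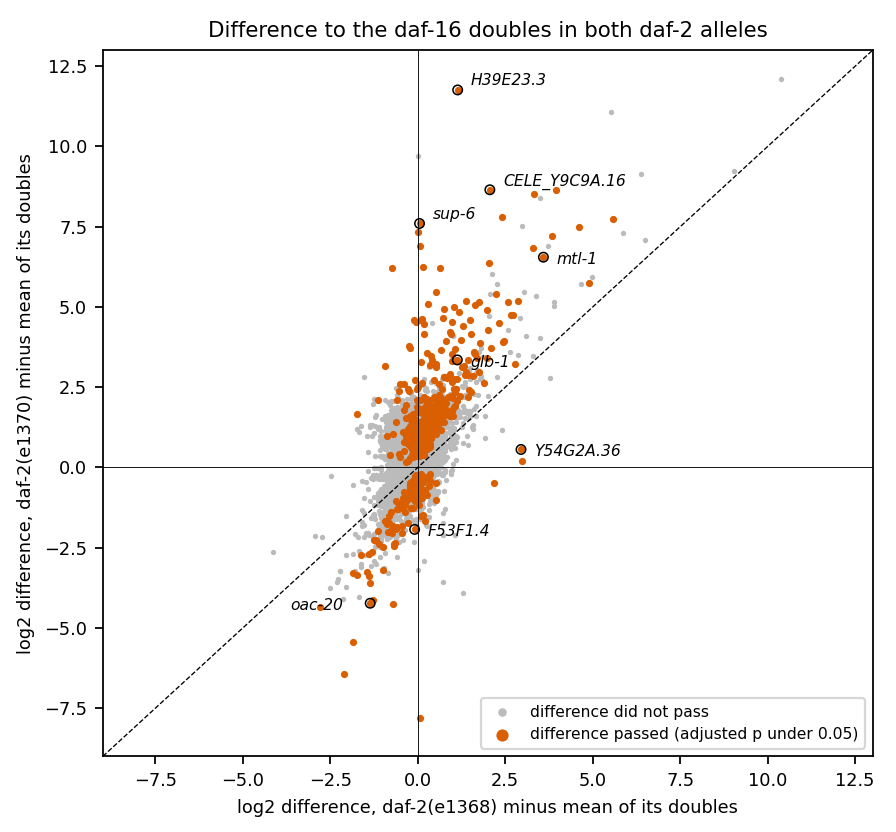
Log2 difference between daf-2(e1370) and the mean of its doubles (vertical axis) against the same difference for daf-2(e1368) (horizontal axis), 1 point per tested entry, orange where the 2 differ at an adjusted p under 0.05, with a dashed line of equality. Of 555 orange points, 442 have the same sign and a larger size in e1370, and ringed genes are named in the text, among them sup-6, whose difference did not pass without daf-2(e1370) replicate 2.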

How the data were processed

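Per the submitters' processing notes, the build was ce10 and the tools included Cuffdiff 2.1.1, Cufflinks, TopHat2 2.0.9, Bowtie2 2.1.0, cutadapt and FastQC 0.10.1, with roles not given in the sources used here. The authors deposited 1 table of estimated counts (fragments per entry and library), of which 72.2% of values above 0 lie within 0.02 of a whole number. These were rounded. Of 34207 entries, 314 without a gene name (0.199 to 0.247% of fragments in the 15 libraries) were left out, and 849 entries sharing a name and locus were summed. As failed estimates, 10 loci (915 entries) were left out that were listed at 0 throughout a strain and averaged 1000 or more fragments in another. Entries at 0 throughout a strain but outside these loci, such as T12D8.5, were kept. Entries that name several genes (31.5 to 35.2% of fragments) were tested but give no named gene, and neighbouring entries can carry a shared span. No source used here says whether counting used strand, so antisense and near-identical genes are uncertain.

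edgeR 4.0.16 (R 4.3.3) with TMM scaling, its expression filter and the quasi-likelihood test was fitted with strain as the only term to the 35 libraries of the daf-2 family, and p-values were Benjamini-Hochberg adjusted over all 11774 entries. Log2 differences are given ± SE, taken as the difference over the square root of the F statistic. The labels do not say whether the 5 replicates were separate cultures, so p-values measure the spread between these libraries, which may be technical. That spread was estimated over all 35 libraries together, and the fit took them as independent. Same-numbered libraries of both doubles nevertheless correlated at 0.64 to 0.85. The SD of log2 levels had a median over entries of 0.273 in daf-2(e1370) and 0.162 in WT. Replicate pairs of a strain differed by more than counting noise, at a chi-square of 9.25 to 177 per degree of freedom over 30 pairs. The script was tested on simulated data. DESeq2 1.42.0 and limma 3.58.1 served as alternatives. Genes were named by rule: among separated entries of 1 gene reaching 10 CPM, the 15 largest differences and the next 8 by adjusted p per direction, up to 3 called members per list and direction, the insulin pathway, and the 8 largest differences between daf-2 alleles per direction (the last 2 and list members without the separation). The members and all 51 gene lists were chosen with earlier results of these data known. Of 2638 list members, 2060 had an entry of their own, 1410 were tested, 574 stood only in shared entries and 4 were not found.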

Additional observations from a re-analysis of the deposited data

Results flagged for a closer look

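Of 93 groups of 5 libraries examined, 11 held 1 library far from the other 4 (gap over range above 0.71), where chance gives about 1 in 20. ZC155.8 was included because, among the genes with the largest allele differences, it had the highest single daf-2(e1370) library. Its flag in that strain was thus fixed by the choice, and the 11 are no test against the chance rate. In daf-2(e1370) replicate 2, daf-16 read 270 CPM (others 179 to 201), daf-2 441 (174 to 207), pdk-1 37.1 (17.7 to 23.2), glb-1 200 (303 to 334) and the RNA gene ZC155.8 3673 (1.52 to 10.9). The same library held 2036 CPM of histone genes (others 242 to 342) and 1400 CPM of small nuclear, nucleolar and RNase RNA genes (others 7.46 to 16). In daf-2(e1370) replicate 3, sod-3 read 77.3 CPM (others 40.2 to 48.4) and cyp-13A2 2.58 (1.05 to 1.36). ZC155.8 also read 9.98 CPM in mg54 replicate 3 (others 0.995 to 3.07) and 20.2 in mu86 replicate 3 (others 0.156 to 3.01).

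The 8 largest differences in each direction between the daf-16 effect in daf-2(e1370) and that in daf-2(e1368), by the interaction test of edgeR, are given for the entries the naming rule reached, and other genes named above also passed. The effect was larger in e1370 for H39E23.3 by 10.62 on the log2 scale (adjusted p = 9.14e-07) and for CELE_Y9C9A.16 by 6.59 (adjusted p = 1.13e-06). It was further below 0 for CELE_F55G11.2 (−3.59), oac-20 (−2.87), CELE_F22E5.1 (−1.99), cyp-13A2 (−2.22), Y48E1B.8 (−1.71), F53F1.4 (−1.84) and Y52E8A.4 (−1.78), with adjusted p from 2.82e-12 to 0.00414. Y54G2A.36 differed by −2.39 (adjusted p = 9.97e-10), with a rise of 0.56 in e1370 and 2.96 in e1368. The differences of sup-6 (7.55), ZC155.8 (7.32), Y24D9A.9 (6.07), Y74C9A.6 (4.94), mrpr-1 (4.8) and his-48 (4.68) became 1.42, 0.22, 0.09, 0.07, −0.16 and −0.34 without daf-2(e1370) replicate 2, with adjusted p from 0.335 to 0.96.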

How the results depend on the processing

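Of 147 called genes in the naming list, 124 kept their direction and their call in each alternative that gave them a value, and 3 turned direction in some. Counts of called entries are given in the order mean of both doubles, mg54, mu86 and difference between daf-2 alleles, from 3246, 2621, 2535 and 555. Fitting only the strains compared gave 2094, 1448 and 1555 for the first 3, and an adjusted p under 0.01 gave 2120, 1500, 1595 and 244. With limma voom the last was 976. Leaving out 1 library at a time gave 2601 to 3534, 1962 to 3126, 2188 to 2695 and 348 to 705, the lowest of the last without daf-2(e1368) replicate 1. The replicate block gave 5660, 5348, 4109 and 3668, and with only the strains compared 5112, 4848 and, for the difference between alleles, 3334. The numbers were not used as pairs: same-numbered libraries of daf-2(e1370) and a double correlated at 0.02 to 0.59 and those of both doubles at 0.64 to 0.85, and 4 of 15 libraries correlated best with their own number in both other strains. Under the block the lists of neuropeptides, neuron markers and sperm markers had 36 of 79, 16 of 26 and 9 of 47 higher, against 6, 5 and 1. Omissions of several libraries were chosen after seeing the data.

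Log2 differences changed sign for smk-1 (0.05 to −0.07 without replicate 2, −0.03 with all 50 libraries, −0.04 without replicates 2 and 3), for hcf-1 (−0.11 to 0.05 without replicates 0 and 1 of the doubles, 0.03 with voom, 0.06 with both omissions) and for math-33 (−0.02 to 0.12 without replicates 0 and 1 of the doubles and 0.01 with both omissions). Leaving out 1 library gave smk-1 −0.07 to 0.09, math-33 −0.12 to 0.02 and his-48 −0.46 to 4.99. ZC155.8 went from 7.32 to −0.37 and mrpr-1 from 5.09 to −0.08 with both omissions. his-48 went from 4.58 to −0.21 with voom, −0.33 with both omissions and −0.4 without replicates 2 and 3. All RNA-gene and histone values rest on daf-2(e1370) replicate 2, whose depth of 2367909 fragments limits low genes there, and the cause was not tested.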

Other observations

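An entry that spans several genes, 6R55.2,cTel55X.1, was chosen after its values were seen. It averaged 0.0959 CPM in daf-2(e1370), 27.7 in the mg54 double, 28.1 in the mu86 double and 24.8 in WT, a log2 difference of −7.80, and its daf-16 effect differed from that in daf-2(e1368) by −7.87.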
